A study of Mus musculus with 15 samples.

Results

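Acute phase plasma proteins are secreted by the liver, and 10 of their genes are described here: the serum amyloid A genes Saa1, Saa2, Saa3 and Saa4, the orosomucoid genes Orm1, Orm2 and Orm3, the haptoglobin gene Hp, the lipocalin gene Lcn2 and the serum amyloid P gene Apcs. They are the rows of the count table that carry these symbols, 10 of 55573 genes, and all 10 were among the 17655 genes that passed the filter on low counts and were tested. Livers of 15 mice were sequenced, 1 library per mouse, from 3 females and 3 males of the wild type (WT) and from 5 females and 4 males of the ESR1KO genotype, all 8 weeks old and given no treatment in the labels. All mice were labelled as the strain B6N(Cg)-Esr1tm4.2Ksk/J. ESR1KO mice were homozygous for a loss of exon 3 of Esr1, which encodes estrogen receptor alpha, and WT mice carried the intact gene. The deletion is present in the whole body, and the study describes raised testosterone in ESR1KO mice of both sexes, so loss of the receptor in hepatocytes, its loss elsewhere and the altered hormones cannot be told apart in these livers.

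Hepatocytes raise the output of acute phase proteins when interleukin 6 (IL-6), acting through STAT3, and interleukin 1 (IL-1), acting through NF-kB, reach the liver during infection or injury, and factors of the C/EBP family and glucocorticoids add to this response. Saa1 and Saa2 encode lipoprotein-bound proteins that can rise steeply in blood, Saa3 is also made outside the liver, and Saa4 is the member of the family that is made constitutively. Orosomucoids carry small lipophilic molecules, haptoglobin captures free haemoglobin, lipocalin 2 withholds iron from bacteria by binding siderophores, and serum amyloid P is a pentraxin that serves as a main acute phase reactant in mice.

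The 10 genes lie at 5 places in the genome (GRCm38, GENCODE M21 annotation). Saa3, Saa4, Saa1 and Saa2 form a cluster on chromosome 7, at chr7:46711998-46715700 (minus strand), chr7:46727998-46732603 (minus), chr7:46740497-46742980 (minus) and chr7:46751790-46754313 (plus). Orm1, Orm3 and Orm2 stand in a row on the plus strand of chromosome 4, at chr4:63344560-63348163, chr4:63356162-63359511 and chr4:63362449-63365878. Hp lies at chr8:109575128-109579172, Lcn2 at chr2:32384633-32388252 and Apcs at chr1:172893961-172895041, each on the minus strand. No other annotated gene overlaps any of the 10. Saa1 and Saa2 share 31.1% of the 50-base words of the Saa1 transcripts, and Orm1 and Orm2 share 20.4% of those of Orm1, so reads from these genes can map to more than 1 place. The treatment of such reads is not given in the sources used here, and the split of reads within the Saa1 and Saa2 pair and among the 3 Orm genes is uncertain.

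The sequences upstream of 4 members are shown because their values are compared with each other below: Saa1 with Saa2, and Orm2 with Orm3. Each is the stretch from 250 to 51 bases before the RefSeq gene start (GRCm38.p6), 5′ to 3′ along the gene's strand. The windows are chr7:46743031-46743230 (minus) for Saa1, chr7:46751583-46751782 (plus) for Saa2, chr4:63362199-63362398 (plus) for Orm2 and chr4:63355908-63356107 (plus) for Orm3. Capitals mark matches to letters used for C/EBP (TTGCNNAA) and, in Saa1, for NF-kB (GGNNN followed directly by TTTCC), each searched on both strands.
Saa1: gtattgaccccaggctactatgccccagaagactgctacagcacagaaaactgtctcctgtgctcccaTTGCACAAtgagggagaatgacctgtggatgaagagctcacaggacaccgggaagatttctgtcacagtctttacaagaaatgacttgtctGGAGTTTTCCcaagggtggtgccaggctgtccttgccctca
Saa2: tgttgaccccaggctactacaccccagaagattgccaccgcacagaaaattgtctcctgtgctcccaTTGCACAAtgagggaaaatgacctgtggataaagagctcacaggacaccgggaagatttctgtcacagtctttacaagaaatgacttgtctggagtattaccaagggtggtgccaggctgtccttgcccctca
Orm2: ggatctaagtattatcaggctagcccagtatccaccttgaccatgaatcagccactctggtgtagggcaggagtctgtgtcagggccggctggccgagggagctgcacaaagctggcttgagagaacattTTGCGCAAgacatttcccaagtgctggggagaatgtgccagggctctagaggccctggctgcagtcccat
Orm3: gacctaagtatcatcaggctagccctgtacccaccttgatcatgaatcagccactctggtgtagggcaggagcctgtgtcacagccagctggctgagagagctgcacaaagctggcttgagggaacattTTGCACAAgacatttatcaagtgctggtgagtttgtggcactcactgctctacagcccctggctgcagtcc

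Over the full 250 bases, Saa1 and Saa2 were 94.8% identical, and Orm2 and Orm3 were 85.5% identical. RefSeq sequences were matched for 8 of the 10 members, without Orm1 and Hp. The C/EBP letters were found in all but Apcs of these 8, namely Saa1, Saa2, Saa3, Saa4, Orm2, Orm3 and Lcn2, and in 9.56% of 32851 mouse promoters of the same length. The NF-kB letters were found in Saa1 and in none of the other 7, against 4.63% of all promoters, and the letters TTCNNNGAA used for STAT3 were found in Apcs, against 7.02%. An estrogen response element, spelt as GGTCA and TGACC parted by NNN, was found in none of the 8, against 0.0639% of all promoters. None of these matches overlapped another. The letters were chosen after the sequences had been seen, and a match describes letters, not binding.

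Levels of different genes can be compared only per length, here as CPM (counts scaled to library size) per kilobase of exon. Hp was the highest member in each of the 4 groups, with group means between 1005 and 1742 CPM per kilobase, and Orm1 was the next highest, with 571 to 767. Apcs (59.9 to 93.1) and Saa4 (46.7 to 95.1) took the next places, with Saa4 above Apcs in WT males and Apcs above Saa4 in the other groups. Lcn2 (0.662 to 1.86), Saa3 (0.902 to 1.81) and, outside WT females, Orm3 (0.505 to 0.789) were the lowest, and Orm3 reached 5.92 in WT females. Orm1 held 96.2% to 99.3% of the reads counted on the 3 Orm genes in every mouse, and Saa1 held 55.0% to 74.6% of those on Saa1 and Saa2. All further levels are given in CPM scaled by TMM factors, which compare mice for a gene and not genes with each other.

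The tissue and group labels were checked before the comparisons. The hepatocyte markers Alb, Ttr, Apoa1, Cps1 and Hnf4a summed to between 73240 and 106800 CPM per mouse. The level of Esr1 averaged 81.9 CPM (SD 6.79, n = 3) for females and 36.1 CPM (SD 14.1, n = 3) for males of the WT, against 13.1 CPM (SD 4.01, n = 5) and 11.9 CPM (SD 3.35, n = 4) for ESR1KO females and males, with no overlap between genotypes, and its count covers all exons, not the deleted exon alone. Xist and the Y-linked Ddx3y fitted the labelled sex of all 15 mice. The libraries held between 27799061 and 78624766 counted reads.

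The mouse WT male 3 stood apart from WT males 1 and 2 in these genes. It was the highest of all 15 mice for 6 of the 10 members: Saa1, Saa2, Saa3, Saa4, Hp and Lcn2. Against the mean of the other WT males it was 6.01 times as high for Saa2 (102 against 17.0 CPM), 4.64 times for Lcn2 (10.2 against 2.20) and 3.70 times for Saa1 (182 against 49.2). The ratios were 2.02 for Saa3, 1.93 for Apcs, 1.78 for Orm2, 1.58 for Saa4, 1.54 for Hp and 1.16 for Orm1, and Orm3 was lower, at 0.536 times. Ranked among the 17655 tested genes by the difference of log2 CPM from the other WT males, Saa2 was 4th, Lcn2 8th and Saa1 16th, where the median over all genes was 3e-04 and the 95th percentile 0.68. WT male 2 was the lowest WT male for all members but Orm3, so the WT male values of Saa1, Saa2 and Lcn2 spread over the widest range of the 4 groups. Other acute phase genes were high in the same mouse. Of 23 further acute phase genes tested, 18 were above the mean of WT males 1 and 2 in WT male 3, with a median difference of 0.23 on the log2 scale. The metallothionein genes Mt2 and Mt1, named after their values were seen, were 2nd and 6th of all genes, at 8.25 against 1.16 and 0.953 CPM for Mt2 and 34.7 against 5.21 and 5.75 for Mt1. Their levels were not highest in this mouse. Mt1 was higher in all WT females (36.3 to 74.6 CPM) and in ESR1KO female 5 (50.3 CPM). Mt2 was at 6.05 to 14.8 CPM in WT females and at 11.6 CPM in ESR1KO female 5. Of its 4 red cell markers, 3 were above the mean of the other WT males (Hbb-bs at 347 CPM against 99.9 and 117), and its summed neutrophil markers were 4.04 CPM against 2.25 and 2.81. All 5 lymphocyte markers were above that mean (median difference 0.55 on the log2 scale) and none of 5 endothelial markers was (median -0.48), with summed endothelial markers at 431.5 CPM against 563.7 and 577.6. In bulk liver, fewer cells of a type and less RNA per cell cannot be told apart. The part of these cells in the values of WT male 3 was not tested. Many results that rest on WT males are therefore given with and without this mouse, but not all are.

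**Figure D1:**
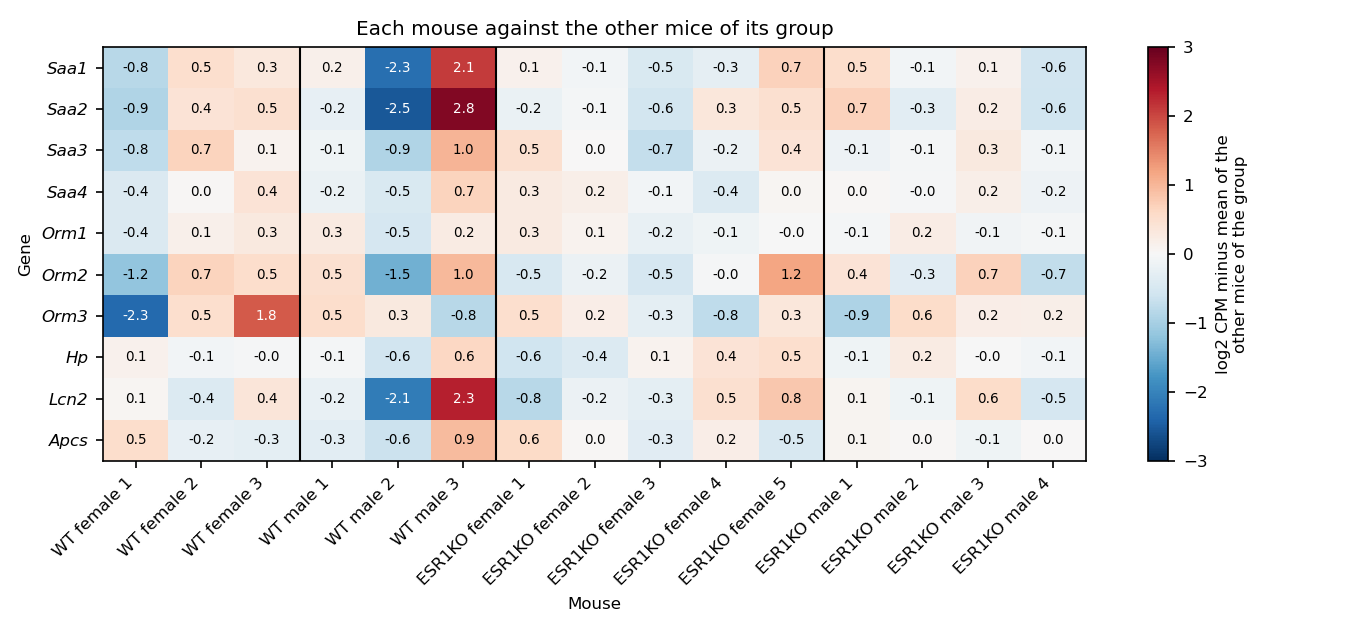
Each cell gives, for 1 gene (rows) in 1 mouse (columns), the log2 CPM minus the mean log2 CPM of the other mice of the same group, and black lines part the groups. WT male 3 is above the mean of the other WT males for every gene but Orm3, by 2.78 for Saa2, 2.32 for Lcn2 and 2.10 for Saa1, and WT male 2 is below it for every gene but Orm3.

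The first comparison asked which of these genes differ between the sexes in WT liver. Of the 10 members, 3 differed, against 4.87% of all tested genes (edgeR quasi-likelihood test, Benjamini-Hochberg adjusted p under 0.05): Orm3 was higher in females (2.67% of all genes were), and Saa1 and Saa2 were lower in females (2.2% of all genes were). The median log2 fold change (female minus male) was -0.47 over the members (-0.30 without WT male 3) and 0.01 over all tested genes.

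Orm3 was the only member that was higher in WT females past the test. Its levels were 1.15, 4.40 and 8.18 CPM in the 3 WT females and 0.692, 0.611 and 0.349 CPM in the 3 WT males, so that the groups did not overlap although the females differed from each other by several fold. The log2 fold change was 3.08 (SE 0.52, edgeR adjusted p = 0.00141), or 8.44-fold, and it stayed past the test when any of the 15 mice was left out (2.35 to 3.54, and 2.80 without WT male 3). As a share of all reads on the Orm genes, Orm3 held 0.302% to 1.51% in WT females and at most 0.135% in any mouse of the other groups. Orm1 and Orm2, its neighbours on chromosome 4, did not pass the test. Orm2 was at 5.68, 13.4 and 12.5 CPM in WT females and 6.64, 2.69 and 8.29 in WT males (log2 fold change 0.83, SE 0.43, edgeR adjusted p = 0.343). Orm1 was at 462 ± 77.8 CPM in WT females and 595 ± 112 in WT males (SD, n = 3 each, log2 fold change -0.36, edgeR adjusted p = 0.256). In WT females, Orm2 and Orm3 thus shared their lowest mouse, WT female 1, which was also the lowest of the 3 for Saa1, Saa2, Saa3, Saa4 and Orm1.

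Saa1 and Saa2 were lower in WT females. Saa1 was at 9.01, 16.7 and 15.2 CPM in WT females and at 74.1, 24.3 and 182 CPM in WT males, and the groups did not overlap. Its log2 fold change was -2.78 (SE 0.50, edgeR adjusted p = 0.00216), a level in females of 0.145 times that in males. Without WT male 3 the log2 fold change was -1.85 (edgeR adjusted p = 0.00924), and Saa1 passed the test whichever of the 15 mice was left out (-3.23 to -1.85). Saa2 was at 5.44, 10.1 and 10.4 CPM in WT females and at 25.3, 8.70 and 102 CPM in WT males, so that WT male 2 lay within the range of the females. Its log2 fold change was -2.40 (SE 0.59, edgeR adjusted p = 0.0228), and the estimate was -0.98 without WT male 3 (edgeR adjusted p = 0.196). Saa2 also missed the threshold when WT female 1, 2 or 3 was left out (edgeR adjusted p = 0.106, 0.0665 and 0.0664). Its estimates were then -2.15, -2.53 and -2.56. The call of Saa2 therefore depends on single mice, and the size of its estimate most on WT male 3, while the call of Saa1 does not depend on any 1 mouse.

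The other WT sex differences did not pass the test. Hp was at 1710, 1552 and 1578 CPM in WT females and at 2648, 2096 and 3650 CPM in WT males, with no overlap (log2 fold change -0.79, SE 0.23, edgeR adjusted p = 0.0565), and the estimate was -0.56 without WT male 3 (edgeR adjusted p = 0.217). Saa3 was at 1.58 to 3.09 CPM in WT females and 2.88 to 7.09 in WT males (log2 fold change -1.02, edgeR adjusted p = 0.0709, and -0.59 without WT male 3). Saa4 was at 109 to 160 CPM in WT females and 157 to 264 in WT males (log2 fold change -0.57, edgeR adjusted p = 0.0977, and -0.31 without WT male 3). Apcs was at 112, 78.8 and 77.0 CPM in WT females and at 54.3, 46.8 and 97.3 in WT males (log2 fold change 0.43, edgeR adjusted p = 0.398). Without WT male 3 its groups no longer overlapped, and the log2 fold change of 0.82 passed the test (edgeR adjusted p = 0.0448). Lcn2 was at 4.30, 3.44 and 4.95 CPM in WT females and at 3.11, 1.30 and 10.2 in WT males. Its log2 fold change was -0.23 (edgeR adjusted p = 0.863) with all mice and 0.94 (edgeR adjusted p = 0.216) without WT male 3, and it was called in neither case.

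**Figure D2:**
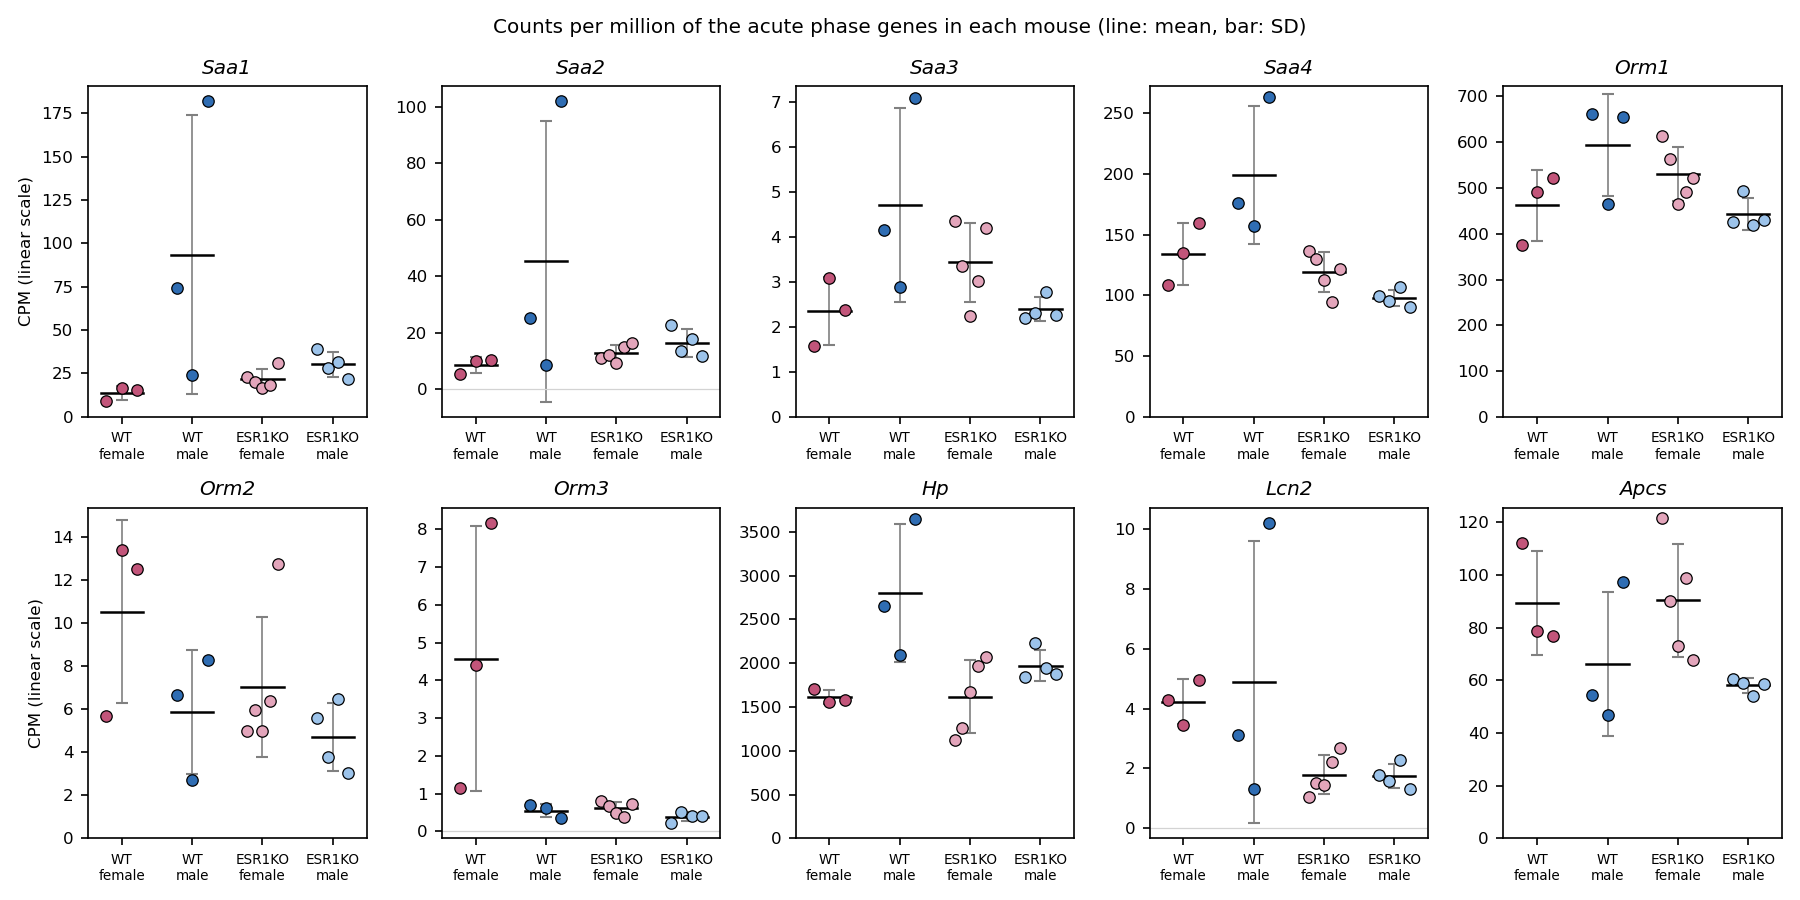
CPM on a linear scale for each gene (panels) in the 4 groups, with a point for each mouse, a line at the group mean and a bar of 1 SD on either side. WT males spread from 24.3 to 182 CPM for Saa1, and all 3 WT females lie above all other mice for Orm3.

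The second comparison asked what loss of ESR1 changes in females. It shares the WT females with the first, so that the values of the same 3 mice enter both. Of the 10 members, 1 passed the test, Orm3, which fell (5.71% of all tested genes passed, with 3.14% higher and 2.57% lower). The median log2 fold change of the members was 0.01 and that of all genes -0.0013. Orm3 was at 0.796, 0.662, 0.495, 0.372 and 0.724 CPM in the 5 ESR1KO females, below the lowest WT female (1.15 CPM). The log2 fold change was -2.89 (SE 0.43, edgeR adjusted p = 0.000623), a level of 0.135 times that of WT females, and it passed the test whichever mouse was left out. The levels in ESR1KO females overlapped those of WT males, which reached 0.692 CPM, and those of ESR1KO males, which lay between 0.217 and 0.513 CPM.

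Lcn2 was also lower in every ESR1KO female than in every WT female, at 1.05, 1.52, 1.43, 2.21 and 2.67 CPM against 4.30, 3.44 and 4.95, but did not pass the test (log2 fold change -1.23, SE 0.45, edgeR adjusted p = 0.112). It did so without WT male 2 (edgeR adjusted p = 0.0473) or WT male 3 (edgeR adjusted p = 0.0244), mice outside this comparison that share its estimate of the spread. Summed neutrophil markers, which belong to another cell type that makes lipocalin 2, were at 2.68 to 4.06 CPM in WT females and 2.79 to 3.16 in ESR1KO females. The Saa1 estimate was 0.68 on the log2 scale (edgeR adjusted p = 0.371), from 9.01, 16.7 and 15.2 CPM in WT females to 22.9, 20.2, 16.4, 18.25 and 30.97 in ESR1KO females, and the groups overlapped by a single mouse. Saa2 (0.57), Saa3 (0.56), Orm1 (0.20), Orm2 (-0.57) and Saa4 (-0.17) had overlapping groups, with edgeR adjusted p between 0.248 and 0.566. Hp averaged 1614 CPM (SD 84.5, n = 3) for WT and 1619 CPM (SD 419, n = 5) for ESR1KO females (log2 fold change 0.0046, SE 0.202), and Apcs averaged 89.3 (SD 19.9) and 90.4 CPM (SD 21.5, log2 fold change 0.02, SE 0.22). The Hp means hide a split between mice. ESR1KO females 1 and 2 (1124 and 1261 CPM) lay below all WT females (1552 to 1710). ESR1KO females 4 and 5 (1970 and 2071) lay above them, and ESR1KO female 3 (1667) lay within their range. ESR1KO females 1 and 2 were the highest ESR1KO females for Orm1 (615 and 562 CPM) and the lowest for Serpina3n and Scarb1, described below. The cause was not tested.

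The third comparison asked the same of males. It shares the WT males with the first comparison, WT males 2 and 3 included. All 10 estimates were below 0, with a median log2 fold change of -0.74 against -0.0011 over all tested genes, and Saa4 was the 1 member that passed the test (1.42% of all genes passed, with 0.833% higher and 0.583% lower).

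Saa4 was at 176, 157 and 264 CPM in WT males and at 99.0, 95.4, 107 and 90.1 CPM in ESR1KO males, with no overlap. Its log2 fold change was -1.03 (SE 0.17, edgeR adjusted p = 0.00491), a level of 0.491 times that of WT males. It was -0.77 without WT male 3 (edgeR adjusted p = 0.0374), and Saa4 passed the test whichever of the 15 mice was left out. Unlike Saa1 and Saa2, Saa4 is regarded as a constitutive product of the liver. Its level in ESR1KO males lay below that of all WT mice of either sex (109 to 264 CPM) and next to that of ESR1KO females (94.5 to 137 CPM).

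For the inducible members the male values turned on 2 WT mice. Saa1 was at 38.96, 28.3, 31.8 and 21.9 CPM in ESR1KO males against 74.1, 24.3 and 182 in WT males, with a log2 fold change of -1.64 (SE 0.43, edgeR adjusted p = 0.0783). It was -0.71 without WT male 3 (edgeR adjusted p = 0.605) and -2.09 without WT male 2 (edgeR adjusted p = 0.00425). Saa2 was at 22.8, 13.6, 17.9 and 11.6 CPM in ESR1KO males, and its log2 fold change went from -1.47 (edgeR adjusted p = 0.217) to -0.05 without WT male 3 and to -1.96 without WT male 2 (edgeR adjusted p = 0.0275). Lcn2 was at 1.77, 1.59, 2.28 and 1.30 CPM in ESR1KO males, and its log2 fold change went from -1.52 (edgeR adjusted p = 0.148) to -0.35 without WT male 3 and to -1.96 without WT male 2 (edgeR adjusted p = 0.0244). Saa3 was at 2.20, 2.31, 2.79 and 2.27 CPM in ESR1KO males, below the 2.88 to 7.09 CPM of WT males, but did not pass the test (log2 fold change -0.98, SE 0.28, edgeR adjusted p = 0.112, and -0.55 without WT male 3). Without WT male 2 there were 5 members past the test (Saa1, Saa2, Saa3, Saa4 and Lcn2), where 166 of all 18024 genes passed. Without WT male 3 there was 1 (Saa4), where 100 of all 17972 genes passed. Without WT male 3 the median of the members was -0.35, and 2 of the 10 estimates were above 0. Hp (-0.51), Orm1 (-0.43), Orm3 (-0.42), Orm2 (-0.34) and Apcs (-0.19) had overlapping groups and edgeR adjusted p between 0.218 and 0.846. Their estimates without WT male 3 were -0.27, -0.35, -0.69, 0.0066 and 0.20 in the same order.

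**Figure D3:**
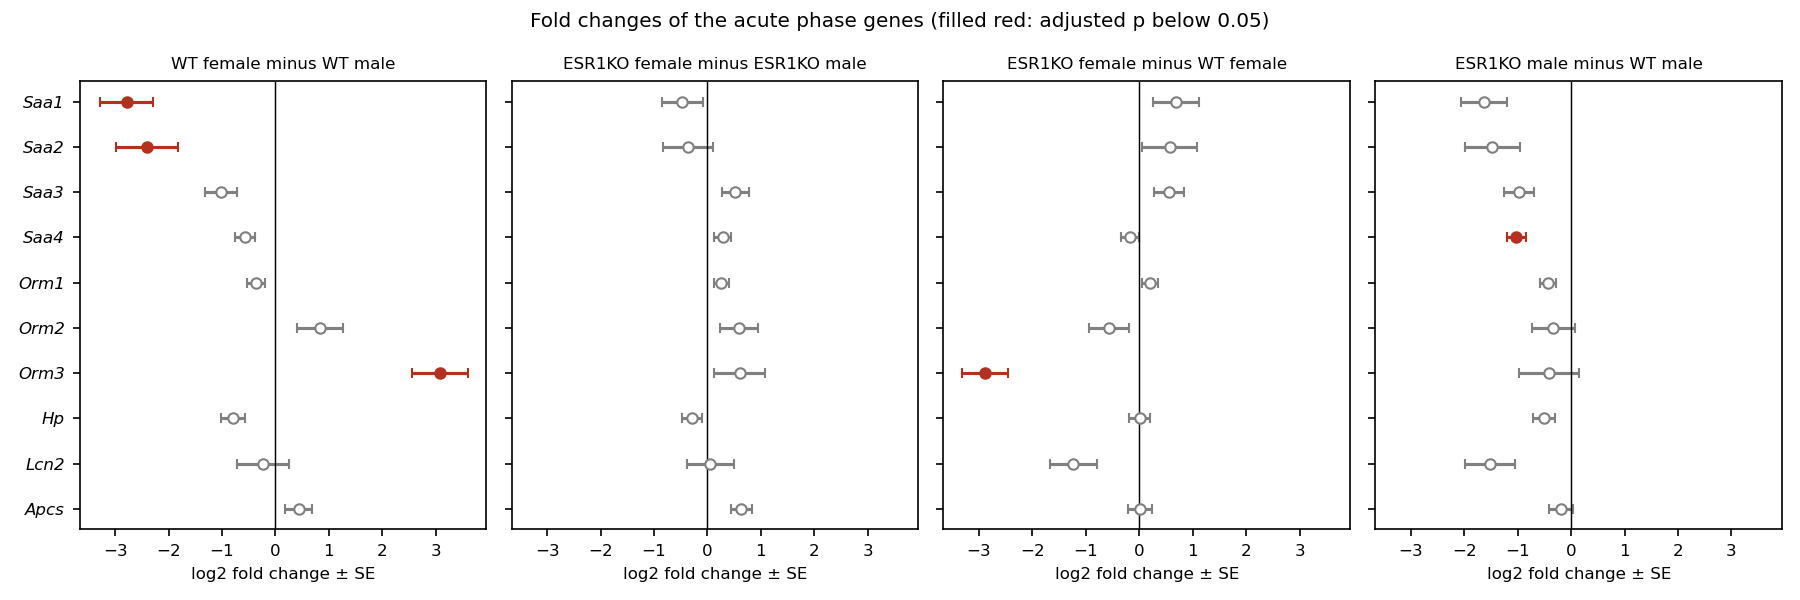
Log2 fold change (points) with its standard error (bars) of each gene in 4 comparisons, with filled red points for an adjusted p under 0.05. Orm3 stands at 3.08 for WT females over WT males and at -2.89 for ESR1KO over WT females, and all 10 genes lie below 0 for ESR1KO over WT males.

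Whether the effect of ESR1 loss differs between the sexes was tested as the difference of the female and the male effect. No member passed the edgeR test (1.94% of all tested genes did, 1.02% with a positive and 0.923% with a negative estimate). In this test 6 of the 10 had an unadjusted p under 0.05. The share of all genes at that threshold was not counted, so this number cannot be judged against it. DESeq2 called 4 members (Orm3, Saa4, Saa3 and Saa1) and 594 of all 17655 genes. The largest estimates in size were -2.47 for Orm3 (SE 0.71, edgeR adjusted p = 0.1004), 2.31 for Saa1 (SE 0.61, edgeR adjusted p = 0.0708), 2.04 for Saa2 (SE 0.74, edgeR adjusted p = 0.224) and 1.54 for Saa3 (SE 0.40, edgeR adjusted p = 0.0624), and that of Saa4 was 0.85 (edgeR adjusted p = 0.0901). Without WT male 3 the estimates were -2.20 for Orm3, 1.39 for Saa1, 0.62 for Saa2, 1.11 for Saa3 and 0.60 for Saa4. Without WT male 2, Saa1, Saa2 and Saa3 passed the test (edgeR adjusted p = 0.00235, 0.0273 and 0.0216), where 255 of all 18024 genes passed. Orm3 passed without WT female 1, and Saa3 without WT female 2 or ESR1KO female 3. A fall of Orm3 in females and of Saa4 in males was therefore not shown to be particular to that sex.

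The last comparison set ESR1KO females against ESR1KO males. None of the 10 members passed the edgeR test, against 0.272% of all tested genes (0.159% higher and 0.113% lower in females). Of the members, 1 had an unadjusted p under 0.05 (the share of all genes was not counted). DESeq2 called none of the members, against 456 of all 17655 genes. The median log2 fold change was 0.27 over the members and 0.01 over all genes. The 1 was Apcs, at 122, 90.2, 73.2, 99.0 and 67.9 CPM in ESR1KO females and at 60.7, 59.1, 54.0 and 58.7 CPM in ESR1KO males. The groups did not overlap, and the log2 fold change was 0.64 (SE 0.20, edgeR adjusted p = 0.159). Orm3, which differed between WT sexes, had a log2 fold change of 0.60 here (SE 0.48, edgeR adjusted p = 0.517), and Saa1 one of -0.47 (SE 0.38, edgeR adjusted p = 0.524). The 3 estimates for Saa2, Hp and Lcn2 were -0.36, -0.28 and 0.06, and those for Saa3, Saa4, Orm1 and Orm2 lay between 0.26 and 0.59.

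The order of the groups differed between members, as the plot of CPM by mouse shows. Group means of Saa1 ran from 13.7 ± 4.08 CPM in WT females over 21.8 ± 5.69 in ESR1KO females and 30.2 ± 7.13 in ESR1KO males to 93.5 ± 80.6 in WT males (SD), and those of Saa2 in the same order from 8.63 ± 2.77 over 12.7 ± 2.87 and 16.5 ± 4.94 to 45.4 ± 49.9. In both genes only the step from WT females to WT males passed the edgeR test among the 4 comparisons run, while DESeq2 also called Saa1 between ESR1KO and WT males (DESeq2 adjusted p = 0.0475). For Saa4 the order was ESR1KO males (97.8 ± 6.96), ESR1KO females (119 ± 16.4), WT females (134 ± 25.6) and WT males (199 ± 56.6), and ESR1KO females and WT females overlapped. For Orm2 it was ESR1KO males (4.72 ± 1.59), WT males (5.88 ± 2.88), ESR1KO females (7.01 ± 3.26) and WT females (10.53 ± 4.23), with all neighbours overlapping. ESR1KO males were the least variable group for Saa4, Orm1 and Apcs, with coefficients of variation of 7.11%, 7.88% and 4.95%, against 28.5%, 18.8% and 41.2% in WT males. The same held for Saa1, Saa3 and Orm2 (23.6%, 11.1% and 33.6%), but not for Saa2, Orm3, Hp and Lcn2.

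Mice that departed from their group mean did so together in some of these genes, not in all. Deviations of log2 CPM from the group mean were correlated between members over the 15 mice, with 100000 permutations of the mice within groups and adjustment over the 45 pairs. Of the pairs, 39 had a positive Pearson r (median 0.52), and 4 passed, all among Saa1, Saa2, Saa3 and Orm2. Pairs of other genes were not measured in this way, so the share of positive pairs has no background here. Saa1 and Saa2 had r = 0.961 (permutation p = 0.00065, adjusted 0.0135) and Spearman rho = 0.896 (permutation p = 0.00075, adjusted 0.0203). Saa1 and Orm2 had r = 0.836 (permutation p = 0.0009, adjusted 0.0135) and rho = 0.857 (permutation p = 0.00294, adjusted 0.0441), and Saa2 and Orm2 had r = 0.791 (permutation p = 0.00023, adjusted 0.0104) and rho = 0.864 (permutation p = 0.0009, adjusted 0.0203). Saa1 and Saa3 had r = 0.840 (permutation p = 0.00305, adjusted 0.0343) and rho = 0.764 (permutation p = 0.0094, adjusted 0.0743). WT males 2 and 3 were the mice farthest from the median. Without their points the 4 values of r were 0.841, 0.881, 0.837 and 0.741 in the same order. Values of r without 2 mice, here and below, kept the group means of all mice, and no p was computed for them. With group means taken anew without WT male 3, the 4 values were 0.924, 0.885, 0.894 and 0.7355. The adjustment left 0 pairs past the threshold without WT female 1 and 1 without ESR1KO female 5, and between 3 and 5 pairs without any other mouse.

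The relation of Saa1 and Lcn2 was weaker without the points of WT males 2 and 3. Saa1 and Lcn2 had r = 0.821 (permutation p = 0.0607, adjusted 0.171, rho = 0.514, permutation p = 0.115, adjusted 0.288) and r = 0.308 without both points. Hp and Lcn2 had r = 0.797 (permutation p = 0.00883, adjusted 0.0685, rho = 0.761, permutation p = 0.0116, adjusted 0.0743) and r = 0.727 without the 2 mice farthest from the median. No relation passed for Orm3 with Saa1 (r = 0.0467, permutation p = 0.858, adjusted 0.917, rho = 0.239, permutation p = 0.457, adjusted 0.666), where r was 0.487 without WT males 2 and 3 and 0.378 without WT male 3. None passed for Apcs with Orm2 (r = -0.0680, permutation p = 0.876, adjusted 0.917, rho = -0.0357, permutation p = 0.927, adjusted 0.993). Reads that Saa1 and Saa2 share can add to their correlation, and the part of this was not tested.

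**Figure D4:**
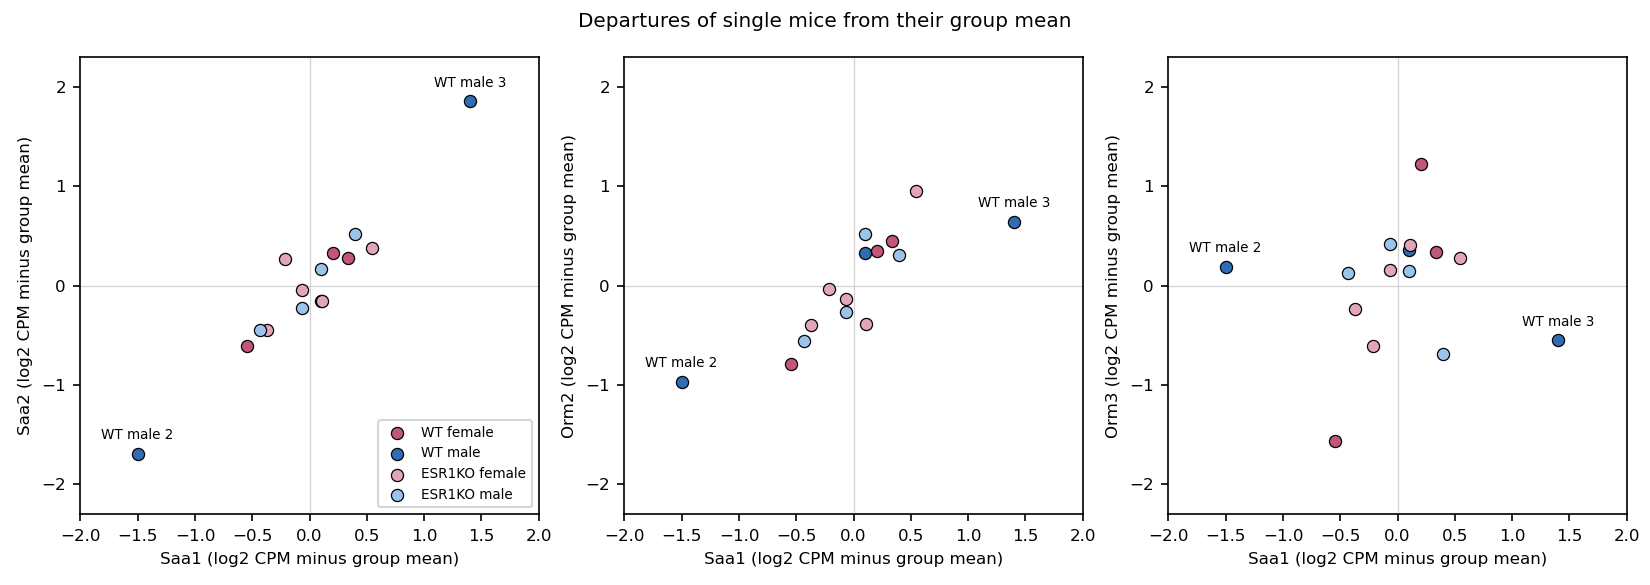
Log2 CPM minus the group mean for Saa1 (horizontal) against Saa2, Orm2 and Orm3 (vertical), with 1 point per mouse coloured by group. The points of Saa2 and Orm2 lie along a rising line (r = 0.961 and 0.836), also among the mice other than WT males 2 and 3. For Orm3 r is 0.0467 with all mice and 0.487 without the points of WT males 2 and 3, with the group means unchanged.

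The tested genes most like Saa1 in these deviations, outside the members, were Slc41a2 (r = 0.934), Slc35d1 (0.916), 5830444B04Rik (0.899), Gm36723 (0.894) and Chst11 (0.889) over the 15 mice. Slc41a2, a magnesium transporter gene, was at 62.2, 29.7 and 66.5 CPM in WT males and 7.95 to 11.04 CPM in WT females, and the r without WT male 3 was 0.949. Chst11, Gm36723 and 5830444B04Rik were under 1.2 CPM in every mouse. Those most like Orm1 were Tlr3 (r = 0.885), Gm39318 (0.876), Gm16587 (0.853), A930015D03Rik (0.842) and Lsm3 (0.838). Gm39318, Gm16587 and A930015D03Rik were at most 0.341, 0.705 and 0.367 CPM in any mouse. These are the extremes of 17655 genes and are given as a description.

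Genes beside the Saa cluster were tested in the same fit. Of 11 annotated genes within 100 kb, 8 were tested, and none passed the edgeR test in any of the 5 contrasts, with 2 of the 8 (Gtf2h1 and Gm45308) at an unadjusted p under 0.05 in some contrast and none called by DESeq2. Saal1, the nearest tested gene to Saa3, was at 4.87 to 6.03 CPM in all 15 mice, and Hps5, next to Saa2, at 20.3 to 25.3 CPM. The pseudogene Saa-ps, between Saa4 and Saa1, had 0 reads in every mouse.

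The other genes of the acute phase response were taken from lists by function. Of 23 further genes listed as acute phase genes, 3 were higher and 1 was lower in WT females than in WT males. Hamp2 (log2 fold change 4.76, edgeR adjusted p = 1.57e-05), a hepcidin gene, Serpina3m (1.12, edgeR adjusted p = 0.000387) and Il1rn (1.32, edgeR adjusted p = 0.0229), which encodes the IL-1 receptor antagonist, were higher. Serpina3k (-0.96, edgeR adjusted p = 0.0187) was lower. Whether each listed gene is induced in the acute phase was not tested here. Hamp2 was at 61.4 to 195 CPM in WT females, 3.88 to 6.92 in WT males, 25.1 to 85.2 in ESR1KO females and 35.7 to 63.2 in ESR1KO males. It fell in ESR1KO females (-1.52, edgeR adjusted p = 0.0318) and rose in ESR1KO males (3.05, edgeR adjusted p = 0.00369), and the 2 effects differed (-4.58, edgeR adjusted p = 0.000354). The counts of the list were 0 higher and 2 lower in ESR1KO females, the other being Serpina3n (named after its value was seen, -0.63, edgeR adjusted p = 0.04997, and 0.0576 without WT male 3), 1 higher and 0 lower in ESR1KO males, and 1 in each direction for the difference of the effects, Serpina3k being the higher one (1.24, edgeR adjusted p = 0.0367). Serpina3n was at 126 and 164 CPM in ESR1KO females 1 and 2, 222 to 270 in the other ESR1KO females and 284 to 346 in WT females. Between the ESR1KO sexes none of the 23 passed, 6 had an unadjusted p under 0.05, and DESeq2 called 2.

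Of 10 negative acute phase genes, whose products fall during the response, 2 were higher in WT females, Serpina6 (log2 fold change 1.52, edgeR adjusted p = 4.38e-05), which encodes the corticosteroid-binding globulin, and Alb (0.66, edgeR adjusted p = 0.0382), the albumin gene, which missed the threshold without WT male 3 (edgeR adjusted p = 0.0673). Serpina6 fell in ESR1KO females (-0.87, edgeR adjusted p = 0.00378) and rose in ESR1KO males (0.78, edgeR adjusted p = 0.0300, and 0.0876 without WT male 3), and the effects differed (-1.65, edgeR adjusted p = 0.000587). No other gene of this list passed the edgeR test in those 3 contrasts, in which DESeq2 called 5, 3 and 2 genes, Serpina6 among them each time. None passed the edgeR test between the ESR1KO sexes, where 3 had an unadjusted p under 0.05 and DESeq2 called 1.

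Of 19 genes of the cytokine path, Il1r1, the receptor for IL-1, was lower in WT females than in WT males (-1.11, edgeR adjusted p = 0.00248) and fell in ESR1KO males (-1.48, edgeR adjusted p = 0.000466). Its levels were 55.2 to 83.2 CPM in WT males against 25.8 to 40.9 in WT females, 21.0 to 34.9 in ESR1KO females and 21.97 to 27.9 in ESR1KO males, so that WT males stood apart from all other mice. The 2 genotype effects on Il1r1 differed (1.26, edgeR adjusted p = 0.0150), and each of these calls was kept without WT male 3. Lifr, the receptor for leukaemia inhibitory factor, fell in ESR1KO males (-1.0015, edgeR adjusted p = 0.0298, and 0.0930 without WT male 3). In ESR1KO females Il1rap, the accessory chain of the IL-1 receptor, rose (0.64, edgeR adjusted p = 0.00688) and Il6ra, the IL-6 receptor, fell (-0.78, edgeR adjusted p = 0.0479). Between the ESR1KO sexes none of the 19 passed, 3 had an unadjusted p under 0.05, and DESeq2 called none. Of 7 cytokine genes, 3 were expressed enough to be tested, and none passed in any contrast, with 1 of 15 values at an unadjusted p under 0.05 and none called by DESeq2. Il6 was at most 0.161 CPM in any mouse. Of 9 genes of the glucocorticoid path none passed in any contrast, with 6 of 45 values at an unadjusted p under 0.05 and 1 called by DESeq2. Of 10 partner and receptor genes, Scarb1, the lipoprotein receptor that also binds serum amyloid A, fell in ESR1KO females (-0.59, edgeR adjusted p = 0.0370), and Cd36 rose in ESR1KO males (1.12, edgeR adjusted p = 0.0345, and 0.202 without WT male 3). Scarb1 was at 51.5 and 68.7 CPM in ESR1KO females 1 and 2, 89.0 to 91.0 in the other ESR1KO females and 104 to 127 in WT females. None of the 10 passed in the other 3 contrasts, where edgeR found 0, 4 and 0 at an unadjusted p under 0.05 (WT sexes, ESR1KO sexes and difference of effects) and DESeq2 called none.

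Markers of the cells that a liver sample can hold were compared in the same fit. Of 10 neutrophil markers, 4 were tested and none passed in any contrast (1 of 20 values at an unadjusted p under 0.05, none called by DESeq2). Their sum was 2.25 to 4.86 CPM over all 15 mice, and Ly6g was at 0 or at most 0.0229 CPM in every mouse. Of 8 Kupffer cell and macrophage markers 1 passed, Vsig4, which was higher in ESR1KO females than in ESR1KO males (0.61, edgeR adjusted p = 0.0210). Their sums were 376 to 452 CPM in WT females, 359 to 376 in WT males, 370 to 463 in ESR1KO females and 288 to 368 in ESR1KO males. ESR1KO males also had the lowest group means of Saa4, Orm1, Orm2, Orm3, Lcn2 and Apcs, but not of Saa1, Saa2, Saa3 and Hp. DESeq2 called 6 of the 8 between the ESR1KO sexes. Of 5 hepatocyte markers Alb alone passed the edgeR test, in WT females over WT males (9 of 25 values at an unadjusted p under 0.05, 6 called by DESeq2). Their sum was lower in all WT males (73240 to 75260 CPM) than in the mice of the other groups (80720 to 106800 CPM). Alb made up most of this sum (53550 to 55920 CPM in WT males). Ttr (4596 to 5893 against 3980 to 4194 CPM) and Apoa1 (6113 to 6932 against 3306 to 5408 CPM) were higher in WT males than in WT females. Cps1 and Hnf4a overlapped between the WT sexes. WT males had the highest group means of Saa1, Saa2, Saa3, Saa4, Orm1, Hp and Lcn2, that of Lcn2 through WT male 3 (the mean of WT males 1 and 2 was 2.20 CPM, against 4.23 in WT females). None of 5 endothelial, 6 stellate and 5 lymphocyte markers passed in any contrast (1 of 25, 7 of 30 and 3 of 25 values at an unadjusted p under 0.05, with 0, 1 and 1 called by DESeq2). Of 4 cholangiocyte markers, Epcam was higher and Sox9 lower in WT females (1.08 and -1.03), and Krt19 and Epcam rose in ESR1KO males (1.23 and 0.95), where the genotype effect on Epcam differed from that in females (-1.17). Of these, only Epcam between the WT sexes still passed without WT male 3. The marker sums were 3.12 to 5.503 CPM in all mice. The fat cell marker Cfd rose in ESR1KO males (edgeR adjusted p = 0.00701, and 0.0597 without WT male 3), from 0.0247 to 0.0733 CPM in WT males to 0.891 to 9.32 CPM, whereas Adipoq and Plin1 were at most 0.0782 CPM and Lep at 0. Of 4 red cell markers Alas2 passed, lower in WT females (-2.97) and higher in ESR1KO females than in WT females (2.56), with a difference of 2.63 between the genotype effects. The part of these cells in the acute phase values was not tested.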

How the data were processed

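Total RNA of the liver of 15 mice was measured by RNA-seq. According to the labels and the study's methods, libraries were depleted of ribosomal RNA, sequenced as paired-end reads in 1 lane with a top-up run for some samples, trimmed with Trimmomatic 0.36 (version from the submitters' processing notes), aligned to GRCm38 with STAR and counted per gene with HTSeq. The deposited values are these raw counts, which the authors did not normalize. Strand setting, annotation release and how multiply mapped reads were handled are not given in the sources used here.

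Mice were grouped by genotype and sex from the labels. The labels do not pair mice, 1 mouse is 1 replicate, and p values measure the spread between single mice. The test was that of edgeR 4.0.16, run under R 4.3.3. Genes were kept with filterByExpr, libraries scaled by TMM, and a mean per group was fitted to all 15 libraries by the quasi-likelihood method, with Benjamini-Hochberg adjustment over 17655 genes and a threshold of 0.05 without a minimum fold change. SE is the log2 fold change divided by the square root of the F value. Counts at an unadjusted p under 0.05 are given without the share of all genes, which was not counted. CPM used the TMM factors, and log2 CPM a prior count of 2. The fits were tested on simulated data. Members were all 10 genes of the set, and up to 4 genes per list were named by the lowest adjusted p. The members, the lists and the tests were chosen with earlier results of these data known. Alternatives were DESeq2 1.42.0 as the test or for scaling, scaling by total counts, a minimum of 1 CPM in 3 libraries or no filter, a log2 fold change of at least 1.5, only the groups compared, a replicate block, and each mouse left out. A robust estimate of the spread and the lists without WT male 3 were added after the data were seen.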

Additional observations from a re-analysis of the deposited data

Results flagged for a closer look

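Of 20 sets of values tested (each of the 10 genes in ESR1KO females and in ESR1KO males), 2 held a mouse far from the others by Dixon's test, which flags about 1 in 20 sets by chance. ESR1KO male 2 was the highest of its group for Orm1, at 494 CPM against 419 to 430 in the other 3, with a gap of 0.845 of the range on the log2 scale (critical value 0.829). ESR1KO female 5 was the highest of its group for Orm2, at 12.7 CPM against 4.98 to 6.39 in the other 4, with a gap of 0.735 of the range (critical value 0.710). The WT groups of 3 mice were not tested in this way.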

How the results depend on the processing

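Over 50 estimates (10 genes in 5 contrasts), 1140 of 1190 alternative values kept their side of the threshold, 42 passed the test only in the alternative and 8 missed it only there, and no called value changed its direction, although some uncalled ones did, such as Lcn2 between the WT sexes without WT male 3. Members past the test numbered 3 between the WT sexes, and 6 with DESeq2 or without a filter (Saa3, Saa4 and Hp added). Between the ESR1KO sexes 0 became 1 without a filter (Apcs). In ESR1KO females 1 became 2 without a filter or with only the groups compared (Lcn2 added). In ESR1KO males 1 became 3 with DESeq2, 5 without a filter and 0 when a log2 fold change of at least 1.5 was required. For the difference of effects 0 became 4 with DESeq2 and 5 without a filter. Saa2 between the WT sexes missed the threshold with only the groups compared (edgeR adjusted p = 0.108), with the robust spread (0.0659) and with the replicate block (0.0824). With each mouse left out in turn, the counts ranged from 2 to 5, 0 to 0, 1 to 2, 1 to 5 and 0 to 3 in this order. In the same runs 541 to 1096, 26 to 109, 413 to 1538, 100 to 331 and 242 to 393 of the 17545 to 18024 tested genes passed. The number of correlated pairs ranged from 0 to 5 (0 without WT female 1, 1 without ESR1KO female 5). The cause was not tested.

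Replicate numbers did not pair the mice: same-numbered mice of different groups correlated between -0.195 and 0.140 in their deviations, and 1 of 18 pairs exceeded 0.1. With the replicate block the counts of members were 2 (Saa2 lost), 0, 1, 1 and 0, and 796, 41, 1383, 165 and 289 genes of the whole table passed. Without the block 860, 48, 1008, 250 and 343 genes passed. With DESeq2 these were 1225, 456, 1536, 499 and 594, without a filter 968, 313, 1126, 411 and 486, with the minimum fold 319, 25, 212, 102 and 192, and with only the groups compared 1261, 26, 457 and 422 for the first 4. Counts were lowest for Orm3 (6 to 48 outside WT females), Lcn2 (from 46) and Saa3 (from 61).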
